A study of Homo sapiens with 18 samples.

Results

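The 31 genes described here encode enzymes and regulators of cholesterol and fatty acid synthesis, taken by symbol from a list of 31, and all 31 were among the 12853 genes with RNA-seq values. Of these, 5 are regulators, 6 are enzymes of the mevalonate and isoprenoid steps, 10 are enzymes of squalene and sterol synthesis, 3 make fatty acids from acetyl-CoA precursors, 6 desaturate, elongate or activate fatty acids, and 1, STARD4, moves sterols between membranes. Cells make cholesterol from acetyl-CoA through the mevalonate pathway and squalene, and they make fatty acids from the same precursor. The SREBP transcription factors, encoded by SREBF2 and SREBF1, drive both pathways: when sterols are scarce, SCAP escorts them from the endoplasmic reticulum to the Golgi, where proteases free their active part, and when sterols are plentiful the INSIG proteins hold SCAP back. Proliferating tumour cells draw on both pathways for membranes and for lipid modification of proteins.

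RNA was sequenced from 6 ovarian cancer cell lines with 3 libraries per line, 18 in all, which form 3 pairs of a platinum-sensitive line and its resistant counterpart. A2780, labelled endometrial/ovarian, was paired with CP70, a derivative made resistant in culture. PEA1 and PEA2 were established from 1 patient with high-grade serous ovarian cancer (HGSOC) before platinum and at resistant relapse, and PEO1 and PEO4 from another, both after platinum but before and after clinical resistance arose. All lines were grown in RPMI-1640 with glutamine and fetal bovine serum, the labels name no drug exposure of the sequenced cells, each line stands for 1 culture history, and the labels do not say whether the replicates were separate cultures, so the spread between them may be technical. Values are log2 CPM, the base-2 logarithm of a gene's reads per library scaled to a common size, and differences are log2FC, the mean of the resistant line minus that of the sensitive line. They were tested by limma, fitted once to the 18 libraries, with the false discovery rate (FDR) over all 12853 genes, and a gene was called at an FDR below 0.05. The libraries held 1344098 to 7067336 reads on listed genes, with the lowest depths in PEA1, and 3 reads corresponded to between 0.452 and 2.18 CPM, which covers counting error only.

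More of the 31 genes were called higher than lower in PEA2, and more were called lower than higher in PEO4. Called both higher in PEA2 and lower in PEO4 were 12 genes, where 8.3% of all genes were. In the PEA pair, 20 of the 31 genes were higher in the resistant line and 4 were lower, where 32.5% of all genes tested were higher and 29.4% lower. In the PEO pair, 1 was higher and 16 were lower, against 19.6% and 21.9% of all genes. In the A2780 pair, 4 were higher and 2 lower, against 22.2% and 17.7%. Their median log2FC stood at 0.90 for PEA2, -0.47 for PEO4 and -0.02 for CP70, while over all genes it stood at 0.01, -0.02 and -0.02. In bulk RNA, a change in the make-up of the cultured cells and a change in RNA per cell cannot be told apart.

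**Figure D1:**
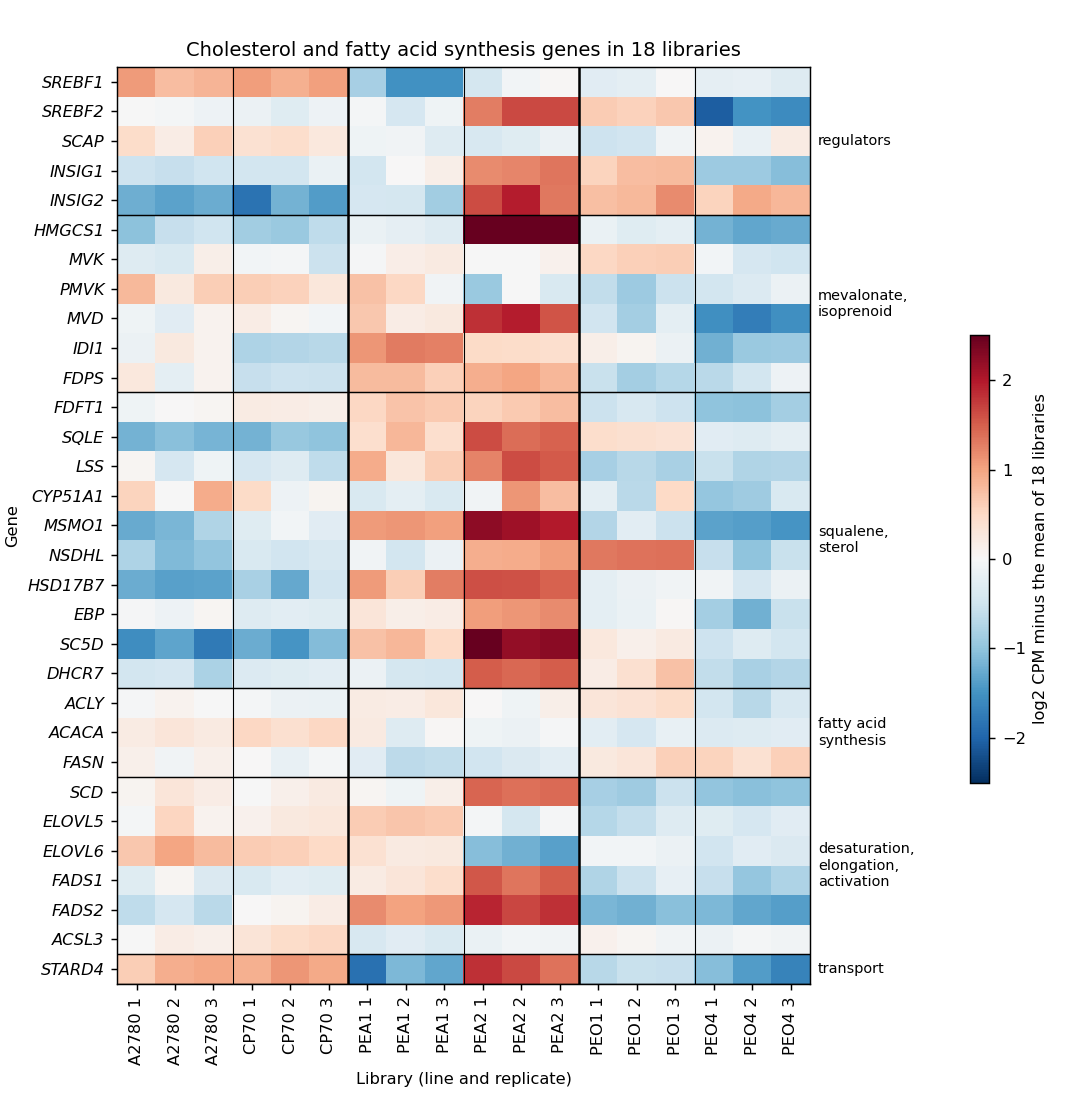
Level of each of the 31 genes in each of the 18 libraries, as log2 CPM minus the mean of the gene over all libraries (colour, saturated at the ends of the scale), with genes in rows by role and libraries in columns by line. The 3 PEA2 columns are red and the 3 PEO4 columns blue for most regulators and sterol enzymes. Of the 31 genes, PEA2 had the highest mean of the 6 lines for 19 and PEO4 the lowest for 16. The same counts were not made over all genes, so these have no share to be set against.

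At the stricter threshold of |log2FC| above 2 that the study set, 3 genes were called in the PEA pair, HMGCS1, STARD4 and INSIG2, all higher in PEA2. The PEO pair had 2, SREBF2 and NSDHL, both lower in PEO4, of which NSDHL, at -1.92, fell short without PEO4 replicate 2, leaving 1. The A2780 pair had 0, and also 0 with voom weights from recovered reads. Of all genes, 14.1%, 6.22% and 9.06% passed this threshold in the PEA, PEO and A2780 pairs. At |log2FC| above 1, the counts were 14, 7 and 0, against 33.6%, 18.8% and 19.2% of all genes. With no threshold on log2FC, an unadjusted limma p below 0.05 was reached by 25, 20 and 8 of the 31 genes in these pairs. The share of all genes at this unadjusted p was not counted.

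Of the 28 genes with a promoter window, SREBF2 alone held the letters searched as the sterol regulatory element, a sequence that SREBP proteins bind. FDFT1, SQLE and FASN had no window and were not searched. In the RefSeq promoter windows of build GRCh38.p14, from 250 bases before to 50 after a gene start, 28 of the 31 genes had 38 windows, and the element was searched as TCACNCCAC on both strands. It occurred in 1 of the 38, that of SREBF2, and in 1.13% of all 35116 windows. Its core CACNCCAC, which the longer motif contains, occurred in 7 of the 38 windows (18.4%) and in 5.87% of all, and the 6 genes with it were ACACA, IDI1, INSIG1, SC5D, SCD and SREBF2. The windows of 30 bases around the match are given for the 5 of these genes that were called at |log2FC| above 1 in at least 1 pair, in the direction of transcription, with the match in capitals (the letters GTGG begin a match on the opposite strand).
SREBF2, chr22:41832962-41832991, plus strand: tgacgcgccaTCACCCCACgcaccgcttcg
INSIG1, chr7:155297659-155297688, plus strand: gcgggccggcgGTGGCGTGtgcgcacgtca
IDI1, chr10:1048983-1049012, minus strand: ggccgggcgatGTGGCGTGgactggcgctg
SC5D, chr11:121292773-121292802, plus strand: tttgcagagcaGTGGCGTGcggagcggcgg
SCD, chr10:100347108-100347137, plus strand: gcagaggccggGTGGTGTGgtgtcggtgtc
CCAAT, the box bound by NF-Y, which works with SREBP proteins at many sterol genes, occurred on either strand in 25 of the 38 windows (65.8%) and in 34.6% of all. These 25 windows belonged to 21 of the 28 genes. The E-box CACGTG occurred in 6 of 38 (15.8%) and in 7.26% of all, and the GC box GGGCGG in 33 of 38 (86.8%) and in 45% of all. In windows of the genes in the expression table alone, the shares were 5.81% for the core, 34.3% for CCAAT, 9.21% for the E-box and 66.2% for the GC box. These are matches of letters and not sites of binding. Of the 6 genes with the core, SREBF2, INSIG1, SC5D and SCD were called higher in PEA2 and lower in PEO4. IDI1 was called lower in both, and ACACA was called in neither pair. Of the genes with a window but no core, HMGCS1, MVD, MSMO1, NSDHL, EBP, DHCR7 and STARD4 were called higher in PEA2 and lower in PEO4. The others without the core were not called in both of these directions. A link between the matches and the differences was not tested.

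SREBF2, which encodes the SREBP factor chiefly responsible for cholesterol synthesis genes, showed the largest fall of the 31 genes in the PEO pair. Its log2 CPM was 7.72, 7.67 and 7.76 in PEO1 and 5.03, 5.59 and 5.51 in PEO4. In the PEA pair it was 7.03, 6.67 and 6.98 in PEA1 and 8.38, 8.75 and 8.75 in PEA2, and in the A2780 pair 7.09, 7.04 and 6.95 in A2780 and 6.94, 6.78 and 6.97 in CP70. All PEO4 libraries lay below, and all PEA2 libraries above, every library of the other 5 lines, while A2780 and CP70 overlapped. SREBF2 was 5.05-fold lower in PEO4 (log2FC = -2.34, SE 0.13, FDR = 5.54e-11) and 3.32-fold higher in PEA2 (log2FC = 1.73, SE 0.13, FDR = 1.09e-09), and was not called between A2780 and CP70 (log2FC = -0.13, SE 0.13, FDR = 0.467). The gene lies at chr22:42229109-42303310 on GRCh37.

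SREBF1, which encodes the SREBP isoforms with the stronger effect on fatty acid genes, was called in the PEA pair alone. It measured 5.46, 4.78 and 4.77 in PEA1 and 5.85, 6.22 and 6.31 in PEA2, so that the lines did not overlap and PEA2 was 2.18-fold higher (log2FC = 1.13, SE 0.16, FDR = 3.85e-06). PEO1 stood at 5.996, 6.04 and 6.29 and PEO4 at 6.07, 6.08 and 5.96, with overlapping libraries (log2FC = -0.07, SE 0.16, FDR = 0.751). The A2780 pair, with 7.36, 7.06 and 7.13 in A2780 and 7.33, 7.17 and 7.31 in CP70, held the highest SREBF1 levels of the 3 pairs, with no called difference (log2FC = 0.09, SE 0.16, FDR = 0.701). The gain in the PEA pair exceeded that in the PEO pair by 1.20 (SE 0.22, FDR = 0.000124). SREBF1 overlaps RAI1 on the opposite strand, and the sources used here do not say whether reads were counted by strand.

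The INSIG genes, whose products retain SCAP and thereby the SREBP precursors in the endoplasmic reticulum, differed from each other. INSIG1, itself a classical SREBP target, read 5.55, 6.01 and 6.15 in PEA1 against 7.19, 7.23 and 7.34 in PEA2, and 6.56, 6.78 and 6.80 in PEO1 against 5.11, 5.10 and 4.94 in PEO4. The A2780 pair gave 5.49, 5.42 and 5.50 in A2780 and 5.55, 5.55 and 5.83 in CP70. PEA2 held the highest and PEO4 the lowest libraries of all 18, in the same order as for SREBF2 at both ends. INSIG1 was 2.55-fold higher in PEA2 (log2FC = 1.35, SE 0.13, FDR = 3.53e-08) and 3.18-fold lower in PEO4 (log2FC = -1.67, SE 0.13, FDR = 5.69e-09), and the A2780 pair gave log2FC = 0.17, SE 0.13, FDR = 0.333.

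INSIG2, the isoform less dependent on SREBP activity, was 3.18, 3.15 and 2.73 in PEA1 and 5.23, 5.56 and 4.93 in PEA2, a 4.65-fold higher level without overlap (log2FC = 2.22, SE 0.24, FDR = 1.33e-07). PEO1 at 4.35, 4.41 and 4.77 and PEO4 at 4.16, 4.56 and 4.44 overlapped (log2FC = -0.13, SE 0.24, FDR = 0.709), as did the A2780 pair with 2.37, 2.25 and 2.36 in A2780 and 1.75, 2.41 and 2.20 in CP70 (log2FC = -0.21, SE 0.24, FDR = 0.519). INSIG2 thus rose with SREBF2 in the PEA pair and was not called where SREBF2 fell. Its values rest on 11 to 12 reads per library in PEA1 and 11 to 18 in A2780.

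SCAP, the escort of the SREBP precursors, had the smallest range over the lines of any of the 31 genes, 0.77 on the log2 scale from PEO1 to A2780. It was the 1 gene called higher in PEO4, at 5.68, 5.73 and 6.12 in PEO1 and 6.30, 6.03 and 6.40 in PEO4 (log2FC = 0.40, SE 0.14, FDR = 0.0238), and the libraries of these lines overlapped. This call was lost in 4 of the 24 other fits, those without PEO1 replicate 1 or 2 or without PEO4 replicate 1 or 3, with a highest FDR of 0.112. Log2FC of SCAP was -0.10 in the PEA pair and -0.05 in the A2780 pair, with no call in either.

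HMGCS1, the synthase that makes HMG-CoA at the entry to the mevalonate pathway, showed the largest difference of the 31 genes in any pair. Its libraries read 6.57, 6.51 and 6.41 in PEA1 and 10.05, 10.04 and 9.79 in PEA2. PEO1 gave 6.55, 6.43 and 6.49 and PEO4 5.54, 5.42 and 5.46, and the A2780 pair 5.69, 6.14 and 6.23 in A2780 and 5.85, 5.80 and 6.08 in CP70. All 3 PEA2 libraries stood more than 3 log2 units above each of the other 15 libraries, and the PEO4 libraries were the lowest. HMGCS1 was 11.1-fold higher in PEA2 (log2FC = 3.47, SE 0.12, FDR = 1.4e-14) and 2.02-fold lower in PEO4 (log2FC = -1.01, SE 0.12, FDR = 1.32e-06), with no call in the A2780 pair (log2FC = -0.11, SE 0.12, FDR = 0.497). The gene lies at chr5:43287572-43313614 on GRCh37.

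MVD, which decarboxylates mevalonate diphosphate, gave 5.11, 4.62 and 4.68 in PEA1 and 6.26, 6.40 and 6.01 in PEA2, with every PEA2 library above all others. It gave 3.95, 3.58 and 4.19 in PEO1 and 2.90, 2.70 and 2.91 in PEO4, and every PEO4 library lay below all others, on 18 to 21 reads each. In the A2780 pair, the values were 4.32, 4.14 and 4.52 in A2780 and 4.62, 4.49 and 4.37 in CP70. The difference was 2.67-fold upward in PEA2 (log2FC = 1.42, SE 0.19, FDR = 2.59e-06) and 2.11-fold downward in PEO4 (log2FC = -1.08, SE 0.19, FDR = 0.000135), and was not called in CP70 (log2FC = 0.16, SE 0.19, FDR = 0.53).

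IDI1, the isomerase that interconverts the isoprenoid building blocks, was called lower in the resistant line of every pair, the single gene of the 31 with a call in the same direction in all 3, and 1.21% of all genes were called lower in all 3. Sensitive and resistant libraries read 6.32, 6.72 and 6.56 against 5.70, 5.74 and 5.78 in the A2780 pair, 7.58, 7.78 and 7.73 against 6.95, 6.93 and 6.89 for PEA, and 6.62, 6.54 and 6.34 against 5.28, 5.54 and 5.57 for PEO. No libraries of a pair overlapped. Log2FC was -0.79 (SE 0.11, FDR = 7.11e-06) in CP70, -0.77 (SE 0.11, FDR = 5.44e-06) in PEA2 and -1.03 (SE 0.11, FDR = 3.04e-07) in PEO4, and none of the 3 differences between these values was called. None of the 31 genes was called higher in all 3 resistant lines, as 1.59% of all genes were.

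The other enzymes of these steps had log2FC values within 1 of 0 in every pair. MVK, which phosphorylates mevalonate, was called in the PEO pair (log2FC = -0.91, SE 0.19, FDR = 0.000764) and lay at -0.09 and -0.02 in the PEA and A2780 pairs. PMVK, the next kinase, was lower in PEA2 (log2FC = -0.82, SE 0.24, FDR = 0.00544), although 1 PEA2 library at 4.42 stood above the lowest PEA1 library at 4.35. FDPS, which makes farnesyl diphosphate, the branch point to sterols and prenyl groups, was lower in CP70 (log2FC = -0.58, SE 0.14, FDR = 0.00188) and had log2FC values of 0.18 for PEA2 and 0.29 for PEO4, neither called. Among the 6 genes of the mevalonate and isoprenoid steps, 2 were thus higher and 2 lower in PEA2, and 4 were lower in PEO4. Of all genes, 32.5% were higher and 29.4% lower in PEA2, and 21.9% were lower in PEO4. MVK overlaps MMAB on the opposite strand.

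Among the 10 enzymes from squalene to cholesterol, 9 were higher in PEA2, with FDFT1 the exception, and 7 were lower in PEO4. Of all genes, 32.5% were higher in PEA2 and 21.9% lower in PEO4. NSDHL, a decarboxylating dehydrogenase that helps strip methyl groups from sterol intermediates, had 6.52, 6.56 and 6.58 in PEO1 and 4.63, 4.18 and 4.64 in PEO4. It had 5.11, 4.74 and 5.05 in PEA1 and 6.11, 6.13 and 6.24 in PEA2, and 4.42, 4.10 and 4.21 in A2780 and 4.82, 4.72 and 4.79 in CP70. The lines of each pair were apart, and PEO1 held the highest libraries of all 18. NSDHL was 4.19-fold lower in PEO4 (log2FC = -2.07, SE 0.14, FDR = 8.12e-10), 2.29-fold higher in PEA2 (log2FC = 1.20, SE 0.14, FDR = 5.03e-07) and 1.45-fold higher in CP70 (log2FC = 0.53, SE 0.14, FDR = 0.00516). It lies on the X chromosome, at chrX:151999511-152038273 on GRCh37.

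DHCR7, the reductase that turns 7-dehydrocholesterol into cholesterol, gave 6.79, 6.51 and 6.48 in PEA1, 8.44, 8.37 and 8.46 in PEA2, 7.12, 7.34 and 7.68 in PEO1 and 6.31, 6.13 and 6.20 in PEO4. In the A2780 pair it gave 6.47, 6.51 and 6.15 in A2780 and 6.59, 6.63 and 6.68 in CP70. PEA2 stood above all other libraries, and the PEO4 libraries were below those of PEO1 but overlapped those of A2780. The rise in PEA2 was 3.55-fold (log2FC = 1.83, SE 0.13, FDR = 1.96e-10) and the fall in PEO4 2.24-fold (log2FC = -1.17, SE 0.13, FDR = 3.36e-07), while CP70 was not called (log2FC = 0.26, SE 0.13, FDR = 0.118).

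SC5D, which forms the substrate of DHCR7 by desaturating lathosterol, had 6.18, 6.26 and 5.94 in PEA1 and 8.07, 7.63 and 7.69 in PEA2, with every PEA2 library above all others. The PEO1 libraries were at 5.69, 5.56 and 5.66 and the PEO4 libraries, without overlap, at 4.92, 5.11 and 4.97. Its lowest levels were in the A2780 pair, 3.88, 4.12 and 3.67 in A2780 and 4.20, 3.96 and 4.35 in CP70, which overlapped. SC5D was called in the PEA pair (log2FC = 1.68, SE 0.15, FDR = 8.18e-09) and the PEO pair (log2FC = -0.63, SE 0.15, FDR = 0.00187) but not the A2780 pair (log2FC = 0.28, SE 0.15, FDR = 0.149).

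MSMO1, the oxidase that begins the removal of the same methyl groups, was called in all 3 pairs with mixed directions. It was 4.87, 4.98 and 5.37 in A2780 and 5.82, 6.05 and 5.84 in CP70, the largest called rise of the 31 genes in that pair (log2FC = 0.83, SE 0.13, FDR = 3.6e-05). PEA1 had 7.18, 7.23 and 7.15 and PEA2 8.36, 8.25 and 8.10 (log2FC = 1.05, SE 0.13, FDR = 1.01e-06), whereas PEO1 had 5.39, 5.85 and 5.58 and PEO4 4.78, 4.75 and 4.64 (log2FC = -0.88, SE 0.13, FDR = 1.92e-05). The libraries of the lines did not overlap within any pair.

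The 6 other squalene and sterol enzymes stayed below 1 on the log2FC scale in every pair. SQLE, the epoxidase that is a rate-limiting step after squalene, was higher in PEA2 (log2FC = 0.93, SE 0.10, FDR = 1.75e-07) and lower in PEO4 (log2FC = -0.68, SE 0.10, FDR = 2.35e-05), and so was EBP, the sterol isomerase (0.90 and -0.75). LSS, which closes the sterol rings, was higher in PEA2 (log2FC = 0.86, SE 0.15, FDR = 6.11e-05) with 0.10 and no call in the PEO pair. FDFT1, which makes squalene, was lower in PEO4 (log2FC = -0.47, SE 0.09, FDR = 0.000154) with 0.04 and no call in the PEA pair. HSD17B7 and CYP51A1 were called in the PEA pair alone, at 0.57 and 0.93, and lost that call in 4 and 5 of the 24 other fits, with a highest FDR of 0.162 and 0.147. For HSD17B7 these were quantile normalization and the fits without PEA1 replicate 2 or PEA2 replicate 1 or 2, and for CYP51A1 the pair fitted alone and the fits without PEA1 replicate 1 or 3 or PEA2 replicate 2 or 3. CYP51A1, the lanosterol demethylase, rests on 7 to 66 reads per library and overlaps AKAP9 on the opposite strand.

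**Figure D2:**
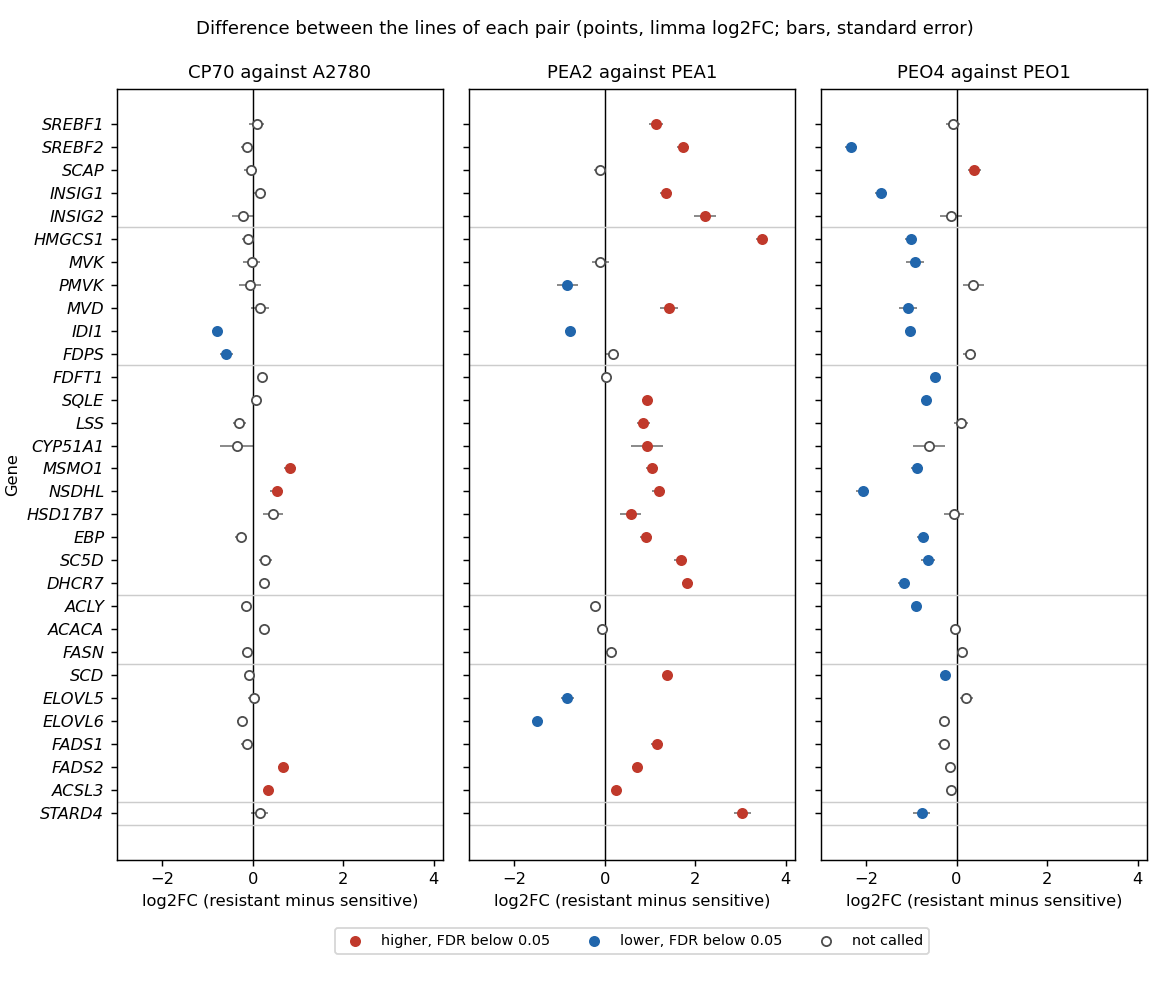
Difference between the lines of each pair for each of the 31 genes (points, log2FC from limma; bars, standard error; filled points, FDR below 0.05; n = 3 libraries per line). Filled red points fill much of the PEA panel, up to 3.47 for HMGCS1, filled blue points much of the PEO panel, down to -2.34 for SREBF2, and most points of the A2780 panel are open and near 0.

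Of the 3 enzymes that make fatty acids from acetyl-CoA precursors, only ACLY was called in any pair. FASN, the fatty acid synthase, ranged from 9.28 in PEA1 to 10.30 in PEO4 as line means and was called in no pair, with log2FC of -0.13, 0.15 and 0.12 in the A2780, PEA and PEO pairs (SE 0.11). ACACA, the acetyl-CoA carboxylase that makes malonyl-CoA, was also called in none, with 0.24, -0.07 and -0.03 (SE 0.11). These were the 2 genes of the 31 without a call, as were 15.7% of all genes. ACLY, which makes cytosolic acetyl-CoA for both pathways, was lower in PEO4 (log2FC = -0.89, SE 0.09, FDR = 1.23e-07), with -0.21 and -0.15 and no call in the other pairs.

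Among the 31 genes, the 3 desaturases rose in PEA2 and the 2 elongases fell. SCD, which puts the first double bond into saturated fatty acids, gave 8.50, 8.35 and 8.58 in PEA1 and 9.90, 9.81 and 9.86 in PEA2. It gave 7.62, 7.55 and 7.91 in PEO1, 7.46, 7.41 and 7.44 in PEO4, and 8.51, 8.75 and 8.64 in A2780 and 8.43, 8.58 and 8.67 in CP70. PEA2 was above all other libraries, and PEO4 was below all others by a narrow margin to PEO1. SCD was 2.61-fold higher in PEA2 (log2FC = 1.38, SE 0.10, FDR = 2.98e-10), and its call in PEO4 (log2FC = -0.26, SE 0.10, FDR = 0.0421) was lost in 6 of the 24 other fits, with a highest FDR of 0.249, namely limma without the trend and the fits without CP70 replicate 2, PEO1 replicate 3 or any 1 of the PEO4 libraries.

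FADS1, a desaturase of polyunsaturated fatty acids, read 7.55, 7.65 and 7.79 in PEA1 and 8.90, 8.69 and 8.85 in PEA2, without overlap. It read 6.59, 6.82 and 7.14 in PEO1, 6.76, 6.37 and 6.58 in PEO4 and 7.05, 7.40 and 6.99 in A2780 and 6.96, 7.08 and 7.05 in CP70, and the lines of both of these pairs overlapped. FADS1 was 2.22-fold higher in PEA2 (log2FC = 1.15, SE 0.13, FDR = 3.16e-07), with -0.28 and -0.12 in the PEO and A2780 pairs and no call. FADS2, which catalyses the preceding desaturation, was higher in PEA2 (log2FC = 0.71, SE 0.10, FDR = 3.08e-06) and CP70 (log2FC = 0.66, SE 0.10, FDR = 1.28e-05). FADS1 and FADS2 overlap on opposite strands, and FADS2 shares its strand with FEN1 within its span, so that reads of these genes could be split between them.

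ELOVL6, which extends saturated fatty acids made by FASN, was 5.90, 5.75 and 5.78 in PEA1 and 4.47, 4.32 and 4.18 in PEA2. The PEO1 libraries lay at 5.47, 5.45 and 5.39, those of PEO4 at 5.05, 5.26 and 5.17, and the A2780 pair at 6.20, 6.52 and 6.33 in A2780 and 6.16, 6.13 and 6.04 in CP70. The PEA2 libraries were the lowest of the 18, and the resistant libraries were below the sensitive ones in every pair. ELOVL6 fell 2.81-fold in PEA2 (log2FC = -1.49, SE 0.12, FDR = 1.3e-09) and was not called in the other pairs (-0.28 and -0.24). ELOVL5, which elongates polyunsaturated fatty acids, fell too (log2FC = -0.82, SE 0.14, FDR = 3.23e-05). ACSL3, which activates long-chain fatty acids, was higher in CP70 (log2FC = 0.34, SE 0.08, FDR = 0.00263) and in PEA2 (log2FC = 0.25, SE 0.08, FDR = 0.0121), and the second call was lost with the pair fitted alone and with quantile normalization, with a highest FDR of 0.352.

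STARD4, a carrier of cholesterol between membranes and a sterol-regulated gene, had 3.67, 4.39 and 4.22 in PEA1 and 7.35, 7.18 and 6.88 in PEA2, its lowest and highest lines. It had 4.84, 4.97 and 4.95 in PEO1, 4.46, 4.13 and 3.85 in PEO4, and 6.14, 6.44 and 6.49 in A2780 and 6.41, 6.63 and 6.47 in CP70. PEA1 overlapped PEO4 at the low end, and neither serous pair overlapped within itself. STARD4 was 8.24-fold higher in PEA2 (log2FC = 3.04, SE 0.18, FDR = 2.19e-11) and 1.71-fold lower in PEO4 (log2FC = -0.77, SE 0.18, FDR = 0.00175), with no call in the A2780 pair (log2FC = 0.15, SE 0.18, FDR = 0.538). PEA1 held 17 to 32 reads of it per library.

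**Figure D3:**
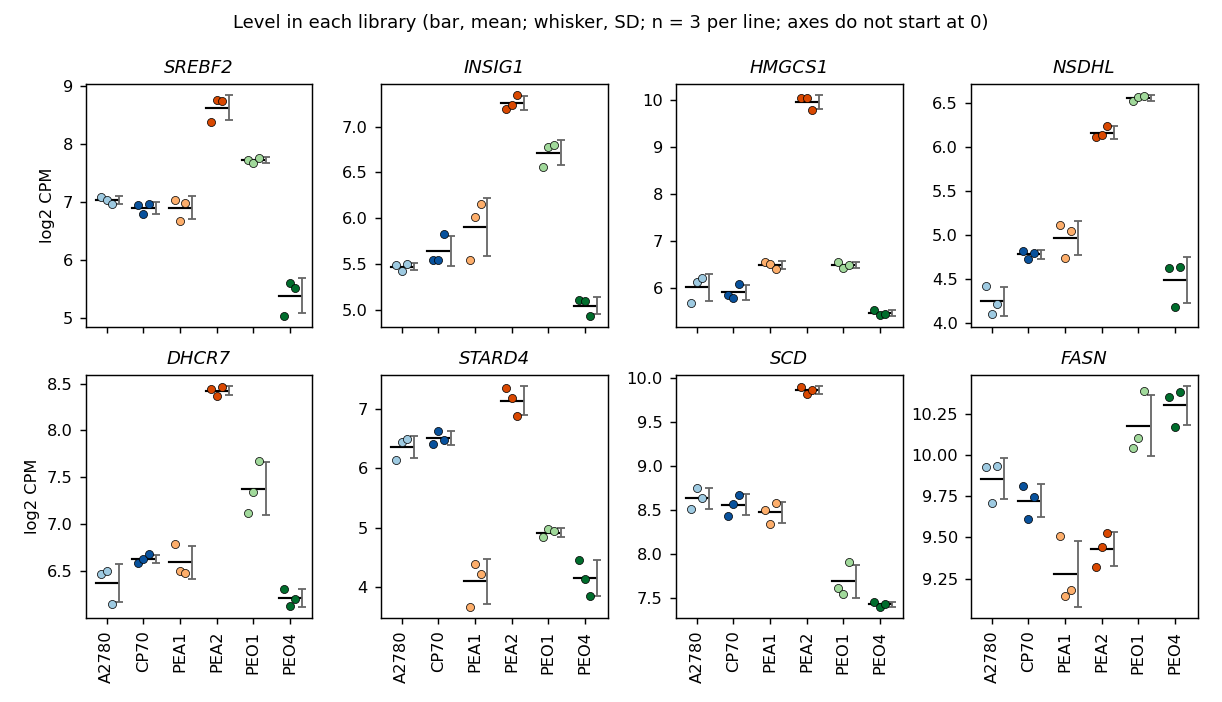
Log2 CPM of 8 of the 31 genes in each library (points), with the mean (bar) and SD (whisker) of the 3 libraries of each line; axes do not start at 0. For SREBF2, INSIG1 and HMGCS1 the PEA2 points are the highest and the PEO4 points the lowest of the 6 lines, while the line means of FASN span 1.02 log2 units.

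The log2FC values of the pairs were compared as a difference of differences, which can be called without opposite directions. ACLY, for example, had log2FC values of -0.21 and -0.89 in the PEA and PEO pairs, and their difference was called. The log2FC of the PEA pair exceeded that of the PEO pair for 22 of the 31 genes and was below it for 4, at an FDR below 0.05, against 30.5% and 28.3% of all genes. A difference above 2 was called for 9 of them, against 10.9% of all genes, and it was 4.48 (SE 0.17, FDR = 9.71e-14) for HMGCS1 and 4.07 (SE 0.19, FDR = 1.44e-12) for SREBF2. Against the A2780 pair, the PEA pair was higher for 17 genes and lower for 2 (29.2% and 28.3% of all genes), and the PEO pair higher for 1 and lower for 16 (22% and 25.6%). Called higher in PEA2 and lower in PEO4 were 12 genes, where 8.3% of all genes were, namely SREBF2, INSIG1, HMGCS1, MVD, SQLE, MSMO1, NSDHL, EBP, SC5D, DHCR7, SCD and STARD4. None of the 31 was lower in PEA2 and higher in PEO4, as 6.31% of all genes were.

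**Figure D4:**
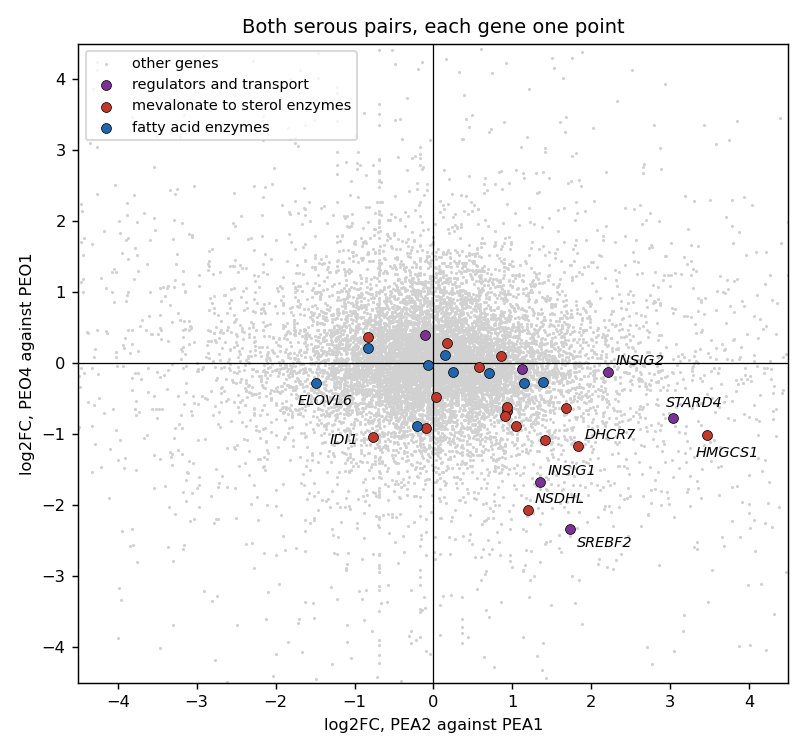
Log2FC of the PEA pair (horizontal) against that of the PEO pair (vertical), 1 point per gene, with the 31 genes coloured by role and the other genes in grey; grey points beyond the axes are not shown. The 12 genes called higher in PEA2 and lower in PEO4 lie at the lower right, with HMGCS1, STARD4, SREBF2, INSIG1, NSDHL and DHCR7 farthest out.

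The arms of the pathway differed in summed level. The 16 enzymes from the mevalonate pathway to sterols summed to 1595 ± 62.0 CPM in PEA1 (SD, n = 3) and 3524 ± 142 in PEA2, and to 1142 ± 28.1 in PEO1 and 682 ± 30.01 in PEO4. A2780 and CP70 were at 831 ± 18.8 and 821 ± 9.99, with overlapping libraries. Without HMGCS1, the sums were 1505 in PEA1, 2524 in PEA2, 1052 in PEO1 and 638 in PEO4, so that the order of the lines was the same. The 9 fatty acid enzymes summed to 2765 ± 164 in PEA1, 3696 ± 162 in PEA2, 2743 ± 247 in PEO1, 2476 ± 147 in PEO4, 2826 ± 76.1 in A2780 and 2830 ± 76.0 in CP70. The libraries of PEA1 and PEA2 did not overlap in this sum, and those of PEO4 ended at 2577 where those of PEO1 began at 2579. Long or highly expressed genes weigh more in such sums.

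Levels of the enzymes were also set beside those of SREBF2 over the means of the 6 lines. Pearson's r with SREBF2 was above 0 for 15 of the 16 sterol enzymes, with a median of 0.63, and for 5 of the 9 fatty acid enzymes, with a median of 0.07, while over all other genes it was above 0 for 6526 of 12852, with a median of 0.01. It was highest for INSIG1 (0.93), EBP and DHCR7 (both 0.89), MVD (0.85) and HMGCS1 (0.82). With SREBF1, the medians were -0.33 and 0.11. These values rest on 6 points that share libraries and pairs, and they are a description of these lines, in which the groups of enzymes were not tested against each other.

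Some of these genes lie among neighbours that moved the same way. In the PEO pair, the 37 other genes that start within 1 Mb of SREBF2 had a median log2FC of -0.90, with SREBF2 itself at -2.34 and no neighbour below it. In the PEA pair they had a median of 1.05, with SREBF2 at 1.73 and 6 neighbours above it. The 12 neighbours of NSDHL had a median of -1.49 in the PEO pair, and 3 of them were below NSDHL. HMGCS1 had 10 neighbours with a median of 1.14 in the PEA pair and 1 above it, and STARD4 had 7 with a median of 1.79 and 1 above it. INSIG1 had 3 neighbours, with medians of -0.07 for PEA2 and -0.39 for PEO4, and DHCR7 had 12, with medians of 0.33 and 0.03. The 5 neighbours of IDI1 had a median of -1.79 in the PEA pair, all below IDI1 at -0.77, and medians of 0.32 and -0.06 in the A2780 and PEO pairs. The part of these neighbourhoods in the differences was not tested.

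**Figure D5:**
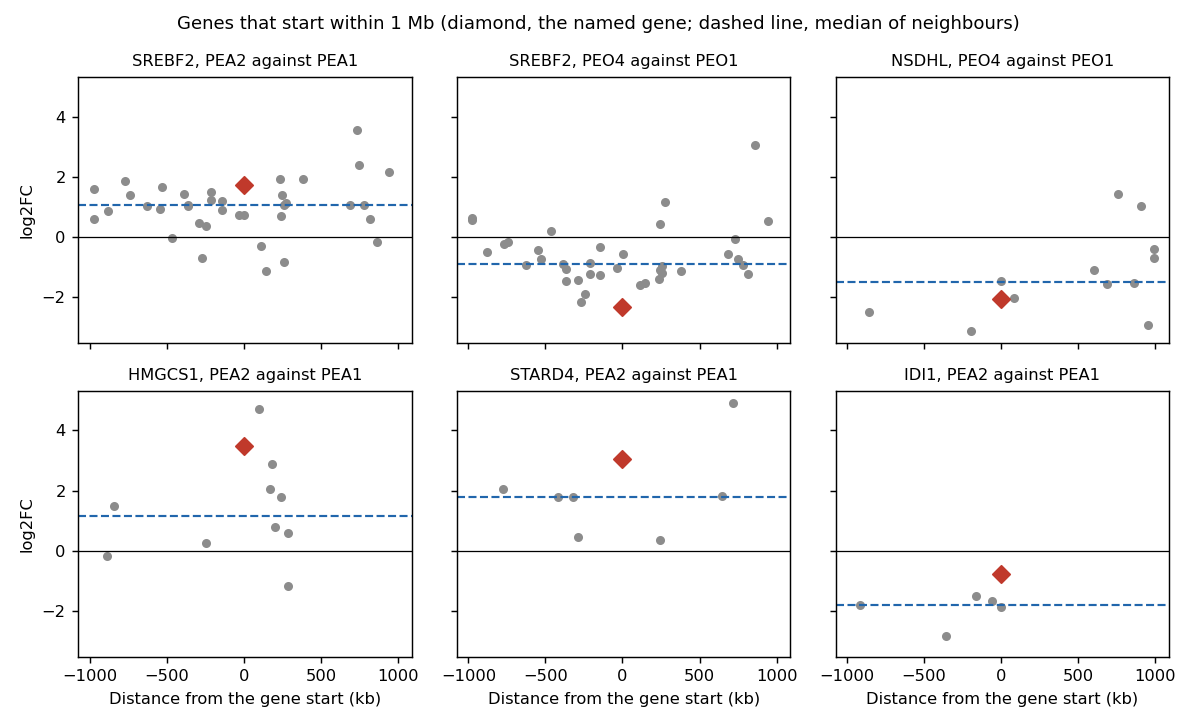
Log2FC of genes that start within 1 Mb of 5 of the genes (grey points, by distance from the gene start in kb), with the named gene as a red diamond and the median of its neighbours as a dashed line. Neighbours of SREBF2 lie mostly above 0 in the PEA pair and mostly below 0 in the PEO pair, with medians of 1.05 and -0.90, and SREBF2 lies farther from 0 than either median.

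Other genes of lipid metabolism were examined from a list of 51 drawn up by their known roles, of which 44 were in the table. In PEA2, 23 were higher and 8 lower, where 32.5% and 29.4% of all genes were. In PEO4, 10 were higher and 14 lower, against 19.6% and 21.9% of all genes, and in CP70, 16 were higher and 7 lower, against 22.2% and 17.7%. Of the 20 other fatty acid and lipid synthesis genes, 14 were higher and 2 lower in PEA2, and 4 higher and 7 lower in PEO4. Of the 7 other sterol and isoprenoid genes, 3 were higher in PEA2, and in PEO4 4 were lower and TM7SF2 was higher. Of the 9 genes of sterol uptake, transport, storage and efflux, 2 were higher and 5 lower in PEA2, and 4 higher and 2 lower in PEO4. The 8 genes of SREBP processing and INSIG turnover had 4 higher and 1 lower in PEA2 and 1 each way in PEO4. These smaller lists were not tested against each other, and the same shares of all genes apply to them.

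The genes of this list called at |log2FC| above 2 include enzymes next to the 31. TM7SF2, a sterol reductase of the same pathway, was 1.35, 1.68 and 0.52 in PEA1 and 4.75, 5.03 and 4.86 in PEA2 (log2FC = 3.70, SE 0.27, FDR = 4.45e-10), with 2 to 4 reads per library in PEA1. ACSS2, which makes acetyl-CoA from acetate, was 3.90, 3.56 and 2.45 in PEA1 and 6.43, 6.46 and 6.51 in PEA2 (log2FC = 3.17, SE 0.29, FDR = 1.43e-08). ABCA1, the exporter of cellular cholesterol, fell from 6.78, 7.27 and 6.97 in PEA1 to 3.71, 3.97 and 3.36 in PEA2 (log2FC = -3.33, SE 0.32, FDR = 2.12e-08). It was lower in PEO4 too (log2FC = -1.32, SE 0.32, FDR = 0.00216), on 4 to 8 reads per PEO4 library. The lines did not overlap in any of these called differences.

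ACACB, a relative of ACACA whose product sits at mitochondria, had 66 to 122 reads per library in PEA1 and 0 in each PEA2 library, at least 44.6-fold lower against a floor of 3 reads per library. SCD5, a second stearoyl-CoA desaturase, was lower in both PEA2 (log2FC = -2.48, SE 0.28, FDR = 2.56e-07) and PEO4 (log2FC = -3.68, SE 0.28, FDR = 3.22e-09), whereas SCD was higher in PEA2. ACSL5, which activates fatty acids, and FAXDC2, a hydroxylase-like gene, were higher in PEA2 (4.34 and 2.64), each from 0 to 4 or 0 to 6 reads per PEA1 library. THRSP, a lipogenic regulator, ELOVL4, an elongase, and MYLIP, a ubiquitin ligase of lipoprotein receptors, were higher in PEO4 (2.70, 2.23 and 2.53). In CP70, ELOVL7 and DGAT2, an elongase and a triglyceride synthase, were higher (2.99 and 2.02), and NR1H3, a sterol-sensing nuclear receptor, was lower (-2.16). ELOVL7 had 0 to 10 reads per A2780 library. Some of these genes were also called in another pair at smaller log2FC. NR1H3 was higher in PEA2 and PEO4 (0.99 and 1.24) and ELOVL7 higher in PEA2 (1.80). ELOVL4, MYLIP and SCD5 were higher in CP70 (1.60, 1.11 and 1.26).

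Marker genes of cell identity also differed within pairs. PAX8 and WT1, markers of serous ovarian cells, were present in the 4 serous lines, and MUC16, another, in PEA2, PEO1 and PEO4, while PEA1 held 0 to 5 reads of MUC16 per library. All 3 had at most 3 reads in every A2780 library, as had KRT7, KRT8 and KRT18. The 4 epithelial markers, EPCAM with these keratins, summed to between 150 and 200 CPM in PEA1 and between 2432 and 2627 in PEA2, and to 3443 to 3683 in PEO1 and 1678 to 2034 in PEO4. The 3 fibroblast markers summed to between 366 and 447 CPM in PEA1 and 3.17 to 4.12 in PEA2, nearly all from COL1A1, with DCN and LUM at most 3 reads in every library of both. The A2780 pair differed too. Its epithelial sum was 1.68 to 2.68 CPM in A2780 and 89.1 to 95.7 in CP70. Its fibroblast sum was 5.93 to 12.5 CPM in A2780 and 37.3 to 41.6 in CP70. Of the leukocyte markers, PTPRC stood at 20.1 to 25.1 CPM in PEA2 and had 0 reads in PEA1, PEO1 and PEO4. The part of these differences in the values of the 31 genes was not tested. Markers of endothelial cells and adipocytes, CD3E and CD14 were not among the genes in the table.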

How the data were processed

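RNA-seq libraries from rRNA-depleted RNA were made by the authors with a directional kit. Per the labels' processing notes, Bowtie2, featureCounts and limma were used with genome build hg19. The table the authors deposited lists 12853 genes as log2 CPM, to whose counts 0.5 reads had been added, and no column of sample values was left out. Whole reads were recovered from 100% of the values within a tolerance of 0.02 and gave depth and read counts. The filter behind the 12853 genes is not given in the sources used here.

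These log2 values entered limma 3.58.1 (R 4.3.3; moderated statistics with a mean-variance trend, 1 fit of 18 libraries, a mean per line), with Benjamini-Hochberg adjustment over 12853 genes and calls at an FDR below 0.05 and, as in the study, also with |log2FC| above 2. Differences between pairs were contrasts in the same fit. The code was tested on simulated data. Libraries were grouped by line from their titles.

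The genes and lists were chosen with earlier results of these data known. All 31 genes were named, with every library's value where |log2FC| exceeded 1 in a called pair, and of the 44 others those called above 2. Some genes of these pathways are not reported here. Gene spans and neighbours came from a GENCODE annotation on GRCh37, which gave no span for ACACA. Promoters came from RefSeq (GRCh38.p14), with no entry used for FDFT1, SQLE and FASN. The alternatives were a fit per pair, leaving out genes with a mean log2 at or below 0, quantile normalization, a replicate block, no trend, voom weights from recovered reads, an FDR below 0.01, |log2FC| above 1, and leaving out each library.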

Additional observations from a re-analysis of the deposited data

Results flagged for a closer look

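Differences between pairs above 2 on the log2 scale, with limma and an FDR below 0.05 over all genes, were singled out. Between the PEA and PEO pairs, the log2FC differed by 4.48 for HMGCS1, 4.07 for SREBF2, 3.81 for STARD4, 3.26 for NSDHL, 3.02 for INSIG1, 2.99 for DHCR7, 2.49 for MVD, 2.35 for INSIG2 and 2.31 for SC5D, in each case with the PEA pair higher. Of these 9 genes, 8 were called in opposite directions in the serous pairs, and INSIG2 was called in the PEA pair alone. Between the PEA and A2780 pairs, the difference was 3.58 for HMGCS1, 2.89 for STARD4 and 2.43 for INSIG2. The PEO pair lay below the A2780 pair, with differences of -2.60 for NSDHL and -2.21 for SREBF2. Lines had 3 libraries each, so that no library was examined as an outlier of its line.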

How the results depend on the processing

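Of the 47 called values of the 31 genes in a pair, 42 were called in the same direction in all 24 other fits, and 5 lost their call in at least 1 (ACSL3, CYP51A1 and HSD17B7 in the PEA pair, SCAP and SCD in the PEO pair). None changed sign. Quantile normalization moved the median log2FC of all genes in the PEA pair from 0.01 to -0.10 and that of the 31 genes from 0.90 to 0.70, and turned the uncalled values of SCD in the A2780 pair to 0.010 and of FDFT1 and FASN in the PEA pair to -0.15 and -0.14. Voom weights turned uncalled MVK in the A2780 pair to 0.048. An FDR below 0.01 left 0 genes higher in PEO4, and |log2FC| above 1 gave 14 genes for PEA2 and 7 for PEO4. The causes were not tested, except that wider or stricter thresholds pass more or fewer genes by construction.

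Leaving out each library in turn gave 0 to 1 genes higher in PEO4 (0 without PEO1 replicate 1 or 2 or PEO4 replicate 3), 1 to 2 at |log2FC| above 2 in the PEO pair (1 without PEO4 replicate 2), and a median of -0.53 to -0.30 there (-0.30 without PEO1 replicate 3). Uncalled values that crossed 0 ranged in the A2780 pair from -0.16 to 0.040 for SCAP, -0.12 to 0.14 for MVK, -0.22 to 0.061 for PMVK, -0.094 to 0.20 for ELOVL5 and -0.20 to 0.0065 for FADS1. In the PEA pair they ranged from -0.020 to 0.090 for FDFT1 and -0.21 to 0.059 for ACACA, and in the PEO lines from -0.13 to 0.018 for SREBF1, -0.21 to 0.0026 for INSIG2, -0.12 to 0.046 for HSD17B7 and -0.094 to 0.029 for ACACA.

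Same-numbered libraries of a pair correlated in their deviations from the line means at r between -0.18 and 0.22. Such weak values cannot show whether the numbers pair the libraries. A replicate block kept all 47 calls. The depth of PEA1 limits genes with few reads, such as INSIG2, CYP51A1 and STARD4.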
